A study of Mus musculus with 9 samples.

Results

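Atf4 and 9 genes that work with it or respond to it (Atf3, Ddit3, Nupr1, Trib3, Ddit4, Sesn2, Asns, Chac1 and Vldlr) were followed by RNA sequencing in mouse AKP tumour organoids. Their Ensembl rows were found by symbol in GENCODE M21, 1 row each, so that all 10 of 10 were read among the 21253 genes of the count table, and all 10 passed the filter on low counts. The 9 libraries fall into 3 groups of 3: a control kept in doxycycline with Apc off, a group without doxycycline for 2 days and a group without it for 7 days, the latter 2 with Apc restored. In this line a doxycycline-dependent short hairpin RNA silences Apc, the Wnt pathway inhibitor, and every group shares the tumour genotype that the labels call AKP. The comparisons ask what changed once Apc had come back for each time. Doxycycline removal, Apc restoration and, at the later time, days in culture cannot be told apart, both times share the same controls, and replicates are described as technical in the labels, which means that p-values speak for the spread of these libraries alone.

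As background, cells under amino acid shortage, unfolded protein in the endoplasmic reticulum, haem shortage or viral RNA phosphorylate the translation factor eIF2, which lowers protein synthesis overall while the Atf4 message is translated better. Atf4 is a bZIP transcription factor, and its protein level is therefore set largely by translation, which RNA counts do not read. With C/EBP and other bZIP partners it drives genes for amino acid supply and, when stress lasts, genes that brake growth or lead to cell death. Renewing intestinal epithelium needs this balance because its crypt cells make protein quickly and its secretory cells load the endoplasmic reticulum.

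Libraries held 24143589 to 32277040 counts. Apc, the hairpin's target, read 6.8 to 8.84 CPM in control, 24.8 to 38.1 CPM in 2-day and 67.9 to 92.9 CPM in 7-day libraries. It was thus lowest in controls, where the labels have it off. Its level also differed between 2 and 7 days, so time and Apc level cannot be told apart there. Levels are CPM, counts scaled to a common library total with TMM factors, changes are log2 fold changes (log2FC) ± SE from edgeR's quasi-likelihood test, and a call is an adjusted p (Benjamini-Hochberg, over the 12535 genes tested) under 0.05. All 7 epithelial markers were detected and summed to 9380 to 12400 CPM in control libraries, 13900 to 15900 in 2-day and 26100 to 35600 in 7-day libraries. From control to 7 days the rise lay mostly in the means of Krt8 (3820 to 11900 CPM) and Krt19 (2760 to 12200), while Cdx2 stood at 171 and 165. The part of these markers in the results was not tested. The 6 immune markers summed to 1.32 to 1.66, 1.56 to 1.99 and 2.93 to 4.63 CPM, mostly Cd68, with Adgre1 at 0 in the control and 7-day groups. The 5 stromal markers summed to 0.781 to 1.12, 0.551 to 0.588 and 0.0865 to 0.451 CPM, with Col3a1 and Dcn at 0 in controls and Col3a1 at 7 days. The 3 endothelial ones stayed at or under 0.551 CPM in sum, with Kdr at 0 after controls. These are bulk libraries, so fewer cells of a type and less RNA per cell cannot be told apart.

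At 7 days 8 of the 10 genes stood 3.32-fold to 7.95-fold above control, while Atf4 itself and Asns, its textbook target in amino acid synthesis, were lower. At 2 days the picture was small and mixed, with Nupr1 and Atf3 higher, Asns and Vldlr lower and 6 genes not called. Beside these counts, 23.7% of all genes tested were called at 2 days (13.1% higher, 10.6% lower), 82.3% at 7 days (40.5% higher, 41.8% lower) and 79.1% between 7 and 2 days (39.2% higher, 39.9% lower). With that background a call at 7 days is common, so the sizes of the changes are given beside the count. The median log2FC of the 10 genes was −0.05 at 2 days and 1.79 at 7 days, against −0.00 and −0.03 over all genes tested. TMM scaling holds that all-gene median near 0, and with library size alone it was −0.43 at 7 days. How many of all genes rose as much as these was not counted.

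**Figure D1:**
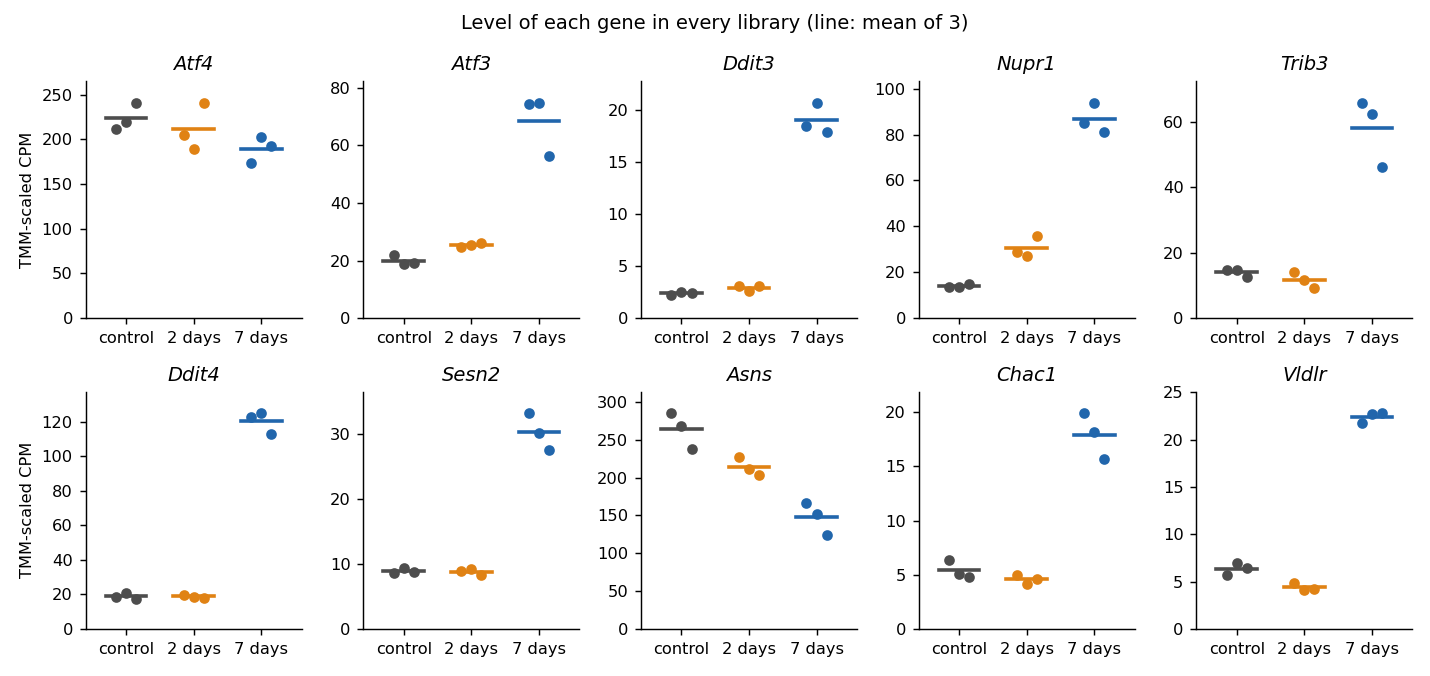
TMM-scaled CPM of the 10 genes in each of the 9 libraries, from 0 upwards on each axis. Points are libraries and bars the mean of 3. In 8 panels the 7-day libraries lie above all others, while Atf4 and Asns slope down. Control and 2-day libraries do not overlap for Nupr1, Atf3, Ddit3, Asns and Vldlr. The share of all genes whose groups do not overlap was not computed, so these counts have no background. Of all genes tested, 23.7% were called at 2 days and 82.3% at 7 days.

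Sequence near the transcription starts is shown first because the genes were picked as Atf4 responders. Atf4 binds, as a dimer with C/EBP factors, a composite element whose core was searched here as TGATGNAA on both strands. RefSeq promoter windows (GRCm38.p6, 250 bases before to 50 after each start) were matched for all 10 genes, 11 windows in all since Vldlr has a pair. The core was in 6 of the 11 (54.5%) and in 3.97% of 32851 windows of all genes. The genes were chosen for their link to Atf4, so this share is a description of them and not a test. The stretches below run 5′ to 3′ on the gene's strand, with the core in capitals; it overlaps none of the other motifs searched.
Atf3: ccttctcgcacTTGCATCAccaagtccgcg
Chac1: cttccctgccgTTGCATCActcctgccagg
Nupr1: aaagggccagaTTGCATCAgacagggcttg
Vldlr: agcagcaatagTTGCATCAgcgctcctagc
Asns: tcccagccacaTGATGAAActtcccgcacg
Trib3: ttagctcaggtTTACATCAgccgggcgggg
They lie at chr1:191183425-191183454 (minus strand), chr2:119351038-119351067 (plus), chr7:126625562-126625591 (minus), chr19:27216809-27216838 (plus), chr6:7693214-7693243 (minus) and chr2:152344028-152344057 (minus). Atf3, Chac1, Nupr1 and the downstream Vldlr start hold the same 8 letters, Asns holds the element in the other orientation with another variable base, and the Trib3 match lies just past its start. Annotated exons cover all 250 bases before the Nupr1 start, 179 of those before the downstream Vldlr start and 45 of those before the Asns start. The Nupr1 and Asns cores lie within these exon bases.

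The windows of Atf4, Ddit3, Ddit4, Sesn2 and the upstream Vldlr start did not hold these letters, which says nothing about elements elsewhere. Ddit3 alone held TGANTCA, the AP-1 core, which 7.81% of all windows held. Its stretch is shown because Ddit3 had the largest change of the 10 genes, at chr10:127290543-127290572 on the plus strand.
Ddit3: cgcgcgcaTGACTCActcacctcctccgcg
No window of the 10 genes held TGACGTCA, the full cAMP response element, found in 1.79% of all windows, and 7 of the 11 held CCAAT, found in 37.4%. The Chac1 window is given up to its first annotated exon base as an example of a longer stretch around the core, at chr2:119350992-119351228 on the plus strand, with the core again in capitals.
Chac1 promoter: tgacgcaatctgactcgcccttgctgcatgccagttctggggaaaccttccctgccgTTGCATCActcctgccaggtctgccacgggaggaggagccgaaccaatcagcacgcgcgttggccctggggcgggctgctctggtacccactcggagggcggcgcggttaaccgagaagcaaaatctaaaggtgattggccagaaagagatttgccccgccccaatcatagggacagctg

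Among the transcription factors, Atf4 (ENSMUSG00000042406, GRCm38 chromosome 15, 80255184 to 80257541, plus strand) read 211, 219 and 241 CPM in controls, 205, 189 and 241 at 2 days, then 174, 202 and 192 by 7 days. Every 7-day library lay below every control, but the 2-day libraries overlapped both other groups. The fall at 7 days was small (1.18-fold, log2FC −0.24 ± 0.10, edgeR adjusted p = 0.032). Its call was lost with DESeq2 size factors (adjusted p = 0.0695), in the DESeq2 Wald test, with a mean of at least 5 CPM, and without control replicate 2 or 3 or 7-day replicate 1 (0.0532 to 0.112). At 2 days the log2FC was −0.08 ± 0.10 (edgeR adjusted p = 0.61).

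Atf3 (ENSMUSG00000026628, chromosome 1, 191170296 to 191218039, minus strand), an early stress factor of the same bZIP class that often represses, read 21.9, 18.8 and 19.2 CPM in controls. The 2-day libraries stood at 24.8, 25.4 and 26.2 CPM, those of 7 days at 74.4, 74.8 and 56.4 CPM. The 3 groups did not overlap, and 7-day replicate 3 was the lowest of its group. Atf3 was up 1.28-fold by 2 days (log2FC 0.35 ± 0.11, edgeR adjusted p = 0.03) and by 7 days 3.43-fold (1.78 ± 0.11, edgeR adjusted p = 5.7e-10). The 2-day call was lost without control replicate 2 or 3 or any 2-day library (adjusted p of 0.0638 to 0.131).

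Ddit3 (ENSMUSG00000025408, chromosome 10, 127290774 to 127296288, plus strand) encodes CHOP, the C/EBP-like factor linked to cell death under lasting stress. It was low at first, with 2.24, 2.53 and 2.38 CPM in controls (58, 88 and 67 counts) and 3.06, 2.6 and 3.1 CPM at 2 days. At 7 days it stood at 18.5, 20.7 and 17.9 CPM, far above every earlier library. The rise of 7.95-fold was the largest of the 10 genes (log2FC 2.99 ± 0.12, edgeR adjusted p = 4.2e-12), while the 2-day log2FC of 0.29 ± 0.14 was not called (edgeR adjusted p = 0.15). Its exons share 68 bases with Mars on the other strand and 105 bases with a second annotated Ddit3 entry, and the library kit does not mark strand. Mars fell at 7 days, from 232 to 106 CPM (log2FC −1.13, edgeR adjusted p = 7.5e-08).

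Nupr1 (ENSMUSG00000030717, chromosome 7, 126623249 to 126630861, minus strand), a small chromatin-binding cofactor induced by stress, had the largest change of the set at 2 days. It read 13.6, 13.8 and 14.8 CPM in controls, 28.8, 27.2 and 36 at 2 days, then 85.2, 93.9 and 80.9 by 7 days, with no overlap between the groups. Nupr1 reached 2.19-fold the control level by 2 days (log2FC 1.13 ± 0.11, edgeR adjusted p = 1.7e-06) and by 7 days 6.16-fold (2.62 ± 0.11, edgeR adjusted p = 6.5e-12).

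Trib3 (ENSMUSG00000032715, chromosome 2, 152337422 to 152344032, minus strand) encodes a pseudokinase that binds Atf4 and restrains it. Its level was 14.7, 14.7 and 12.5 CPM in controls, 14, 11.6 and 9.36 at 2 days, then 65.8, 62.4 and 46.2 by 7 days. Control and 2-day libraries overlapped, and the 7-day libraries lay above both. The 2-day log2FC was −0.26 ± 0.15 (edgeR adjusted p = 0.24) and the 7-day rise 4.16-fold (2.06 ± 0.15, edgeR adjusted p = 3.9e-09).

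The set's brakes on mTORC1, the kinase complex that promotes growth when amino acids are present, were called at 7 days and not at 2 days. Ddit4 (ENSMUSG00000020108, chromosome 10, 59949669 to 59951834, minus strand), known as REDD1, acts through the Tsc complex. It read 18.4, 21 and 17.1 CPM in controls, 19.7, 18.7 and 18 at 2 days, then 123, 125 and 113 by 7 days. Control and 2-day libraries were interleaved (log2FC −0.01 ± 0.09, edgeR adjusted p = 0.98), and the 7-day rise was 6.36-fold (2.67 ± 0.09, edgeR adjusted p = 6.9e-13). Sesn2 (ENSMUSG00000028893, chromosome 4, 132492032 to 132510501, minus strand), the leucine-binding Sestrin that restrains mTORC1 when leucine is scarce, was lower in level. It read 8.61, 9.41 and 8.84 CPM in controls, 8.97, 9.21 and 8.23 at 2 days, then 33.2, 30.2 and 27.6 by 7 days. It had a log2FC of −0.03 ± 0.10 at 2 days (edgeR adjusted p = 0.88) and rose 3.38-fold at 7 days (1.76 ± 0.10, edgeR adjusted p = 1.8e-10).

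The enzymes of the set parted. Asns (ENSMUSG00000029752, chromosome 6, 7675169 to 7693254, minus strand), asparagine synthetase, read 285, 268 and 238 CPM in controls, 227, 211 and 203 at 2 days, then 167, 152 and 124 by 7 days. Each group lay below the one before it. Asns fell 1.78-fold at 7 days (log2FC −0.83 ± 0.10, edgeR adjusted p = 2.5e-06). The 2-day fall (−0.30 ± 0.10, edgeR adjusted p = 0.046) was lost with DESeq2 size factors or limma-voom (adjusted p = 0.0504 in each), and without control replicate 1 or 2, any 2-day library or 7-day replicate 2 (0.0657 to 0.176). Chac1 (ENSMUSG00000027313, chromosome 2, 119351229 to 119354381, plus strand), which breaks down glutathione, read 6.37, 5.05 and 4.79 CPM in controls, 4.99, 4.19 and 4.57 at 2 days, then 19.9, 18.2 and 15.7 by 7 days. Its first groups overlapped (−0.23 ± 0.14, edgeR adjusted p = 0.27), and at 7 days it rose 3.32-fold (1.73 ± 0.13, edgeR adjusted p = 5.7e-09).

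Vldlr (ENSMUSG00000024924, chromosome 19, 27216484 to 27254231, plus strand), the very low density lipoprotein receptor, first fell and then rose. It read 5.75, 6.97 and 6.39 CPM in controls, 4.9, 4.15 and 4.17 at 2 days, then 21.8, 22.7 and 22.8 by 7 days, with no overlap between groups. The fall at 2 days was 1.45-fold (log2FC −0.53 ± 0.11, edgeR adjusted p = 0.003) and the later rise 3.5-fold (1.81 ± 0.10, edgeR adjusted p = 2.5e-10). Vldlr was the one gene of the 10 called in opposite directions at the 2 times, and the change from 2 to 7 days was 5.08-fold (2.34 ± 0.11, edgeR adjusted p = 3e-11).

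**Figure D2:**
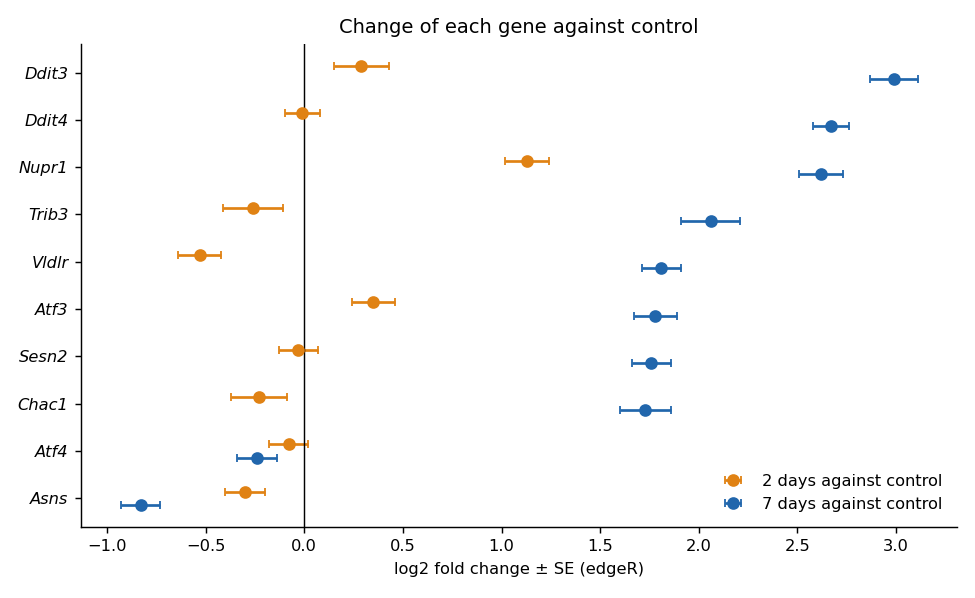
Log2 fold changes against control ± SE from edgeR for the 10 genes, in orange at 2 days and blue at 7 days. At 2 days Nupr1 has the largest change (1.13); at 7 days the values run from −0.83 for Asns to 2.99 for Ddit3.

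Between 2 and 7 days 8 of the 10 genes rose and 1, Asns, fell (log2FC −0.53 ± 0.10, edgeR adjusted p = 0.00026). Atf4 was not called between these times (−0.16 ± 0.10, edgeR adjusted p = 0.14), although it was with library size alone (−0.58), with upper-quartile factors (−0.28) and without 2-day replicate 2 (−0.24). Most of the 7-day rise of Ddit4 (2.68 ± 0.09), Trib3 (2.32 ± 0.15), Chac1 (1.96 ± 0.13) and Sesn2 (1.79 ± 0.10) therefore came after day 2. Nupr1 divided its rise, with 1.13 before and 1.50 ± 0.10 after day 2 on the log2 scale.

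Levels per kilobase of exon give a rough order of the genes. The length is that of all annotated exons merged, such as 2514 bases for Nupr1 and 10068 for Vldlr. Which transcripts were made was not determined, and the order depends on these lengths. In controls Asns (96.5 CPM per kb) and Atf4 (94.8) stood together and overlapped, far above Ddit4 (10.7) and Atf3 (9.28), which overlapped each other. Trib3 (6.57) and Nupr1 (5.59) overlapped as well, followed without overlap by Chac1 (3.3), Sesn2 (2.58), Ddit3 (1.39) and Vldlr (0.633). At 7 days the order was Atf4 (80.3 CPM per kb), Ddit4 (68.5) and Asns (54.1), with no overlap between neighbours. Nupr1 (34.5), Atf3 (31.8) and Trib3 (27.4) then overlapped in turn, as did Ddit3 (11.1) and Chac1 (10.9), above Sesn2 (8.74) and Vldlr (2.23). Ddit4 thus passed Asns, and Ddit3 moved from below Chac1 and Sesn2 to the level of Chac1.

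**Figure D3:**
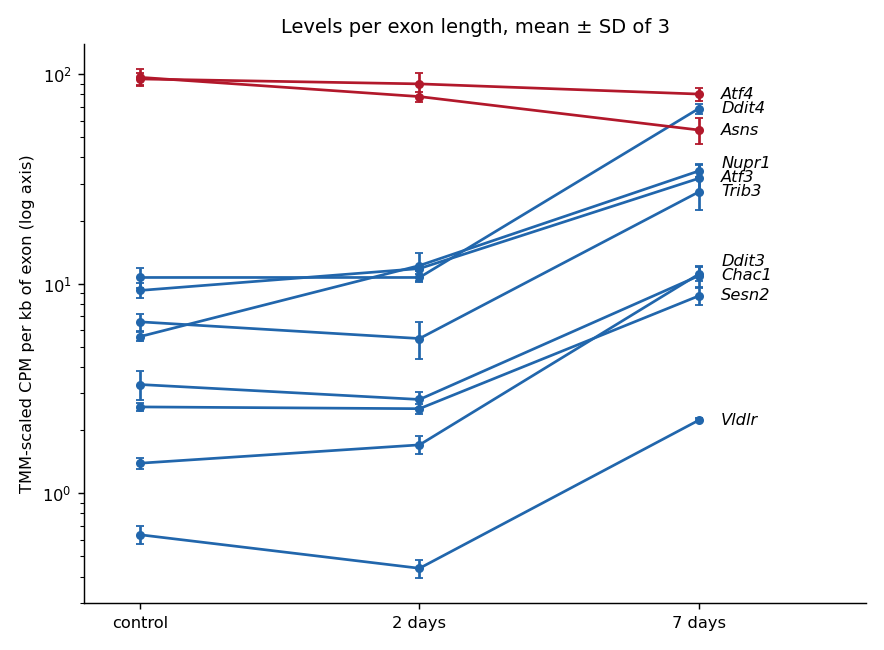
Mean ± SD (n = 3) of TMM-scaled CPM per kilobase of merged exon in each group, on a log axis. Atf4 and Asns are red and the other genes blue; the distance between the red and blue lines narrows at 7 days, when Ddit4 (68.5) lies above Asns (54.1).

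Counts of each gene per 100 Atf4 counts of the same library do not depend on how libraries are scaled. Ddit3 gave 0.988 to 1.16 in control, 1.28 to 1.49 in 2-day and 9.34 to 10.6 in 7-day libraries. Ddit4 gave 7.11 to 9.63, 7.48 to 9.9 and 58.7 to 70.9, and Nupr1 gave 6.15 to 6.44, 14.1 to 14.9 and 42.2 to 48.9. Asns moved the other way, with 98.7 to 135 in the control, 84.1 to 112 in the 2-day and 64.9 to 95.9 in the 7-day group, so that its control and 7-day libraries were apart and the 2-day ones overlapped both.

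The genes that act before Atf4 were mostly lower at 7 days. These and the lists that follow were chosen with results of these data known, and their counts are set beside the shares of all genes given above. Their CPM are means of 3 libraries, given for control and then 7 days where no other time is named. For the 36 genes picked from the lists by p-value, the SD was 7.18% of the mean in the median, and the SE of the 7-day log2FC was 0.07 to 0.19. Of 16 genes (kinases, eIF2 and eIF2B subunits, phosphatase subunits and Gcn2 regulators), 5 were called higher and 10 lower at 7 days, with a median log2FC of −0.67. At 2 days 1 was higher and 5 lower, and 3 lower when control replicate 1, control replicate 2, 2-day replicate 1 or 2-day replicate 3 was left out; the 1 higher, Eif2ak3, was lost without control replicate 2. Those lower at 7 days included Eif2b3 (54.4 to 16.1 CPM, log2FC −1.76, edgeR adjusted p = 3.9e-11) and Eif2b1 (149 to 66 CPM, −1.17), subunits of the exchange factor that phosphorylated eIF2 inhibits. Eif2ak4, the amino acid sensing kinase Gcn2, fell from 19.3 to 7.88 CPM. The other 3 kinases rose: Eif2ak2 or PKR from 14.1 to 36.2 CPM (1.36, edgeR adjusted p = 9.8e-10), the endoplasmic reticulum kinase Eif2ak3 or PERK from 20.1 to 32.3 CPM, and Eif2ak1 from 54.5 to 74.6 CPM. Ppp1r15a, or GADD34, which directs removal of the phosphate and is itself an Atf4 target, rose from 35 to 99.7 CPM (1.51, edgeR adjusted p = 5.4e-09). With library size alone, which moves the median log2FC of all genes from −0.03 to −0.43 at 7 days and the calls from 5080 higher and 5237 lower to 3675 and 6876, Eif2ak1 and Ppp1r15b lost their calls, leaving 3 of these genes higher and 11 lower.

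Partner bZIP factors were mostly higher. Of 14 tested, 11 rose and 2 fell at 7 days, with a median log2FC of 0.69; the fallers were 1 under DESeq2's test and without control replicate 1 or 2, 2-day replicate 1 or 7-day replicate 2 or 3. At 2 days 4 rose and 0 fell in edgeR (8 and 1 at an unadjusted p under 0.05, 4 and 0 in DESeq2's test and in limma-voom), with 1 rising without 2-day replicate 1 and 2 without control replicate 2 or 7-day replicate 2. Cebpa, a C/EBP factor of differentiated cells, rose from 5.1 to 66.4 CPM (3.71, edgeR adjusted p = 5.7e-14). Fos rose from 11.8 to 20.6 CPM at 2 days and 48.5 CPM at 7 days, and Fosl2 from 48.2 to 144 CPM at 7 days. Atf5, the closest relative of Atf4 here, stood at 41.2, 35 and 36.9 CPM and was not called at either time. With library size alone 7 rose and 3 fell at 7 days, and Cebpb and Jun turned in sign.

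Other Atf4 targets differed in direction from list to list. Since the lists were made with results known, this is a description and not a test. Of 14 enzymes 9 fell at 7 days and 3 rose, namely Cth (23.2 to 51.2 CPM), Aldh1l2 (2.61 to 5.08) and Pck2 (41.5 to 59.1). The call of Pck2 was lost with library size alone. At 7 days, of 36 genes for amino acid and one-carbon enzymes, amino acid transporters and tRNA charging, 4 were called higher and 24 lower, the higher being 7 without 7-day replicate 3. At 2 days 16 were lower, or 11 to 24 over the alternatives. At that time 1, Slc6a9, was higher, a call lost without any 1 control replicate or 2-day replicate 1 or 2. Psat1 of serine synthesis fell from 677 to 480 CPM at 2 days and 130 CPM at 7 days (log2FC −2.38, edgeR adjusted p = 1.8e-12), and the mitochondrial folate enzymes Mthfd2 (147 to 37.6 CPM) and Mthfd1l (137 to 39.1 CPM) fell by 7 days. Among 9 transporters, Slc7a5, which brings in leucine, fell from 355 to 66.7 CPM (−2.41, edgeR adjusted p = 4.4e-12) and Slc7a1 from 190 to 78 CPM, while the glycine transporter Slc6a9 rose from 7.54 to 30 CPM (1.99). Of 13 tRNA charging genes 10 fell and 0 rose at 7 days in edgeR, with Iars (280 to 87.8 CPM) and Yars (183 to 88.8 CPM) among those that fell. At an unadjusted p under 0.05 1 was higher, as it was called in DESeq2's test and without control replicate 1 or 7-day replicate 3; limma-voom called 0. In contrast, of 11 targets outside amino acid supply 8 rose and 1 fell at 7 days, with a median log2FC of 0.91. The 8 include Ppp1r15a, also counted above among the genes that act before Atf4. Ero1l, an oxidase of the endoplasmic reticulum, rose from 132 to 611 CPM (2.21, edgeR adjusted p = 2.9e-12), the autophagy receptor Sqstm1 from 152 to 707 CPM (2.22), and Herpud1, which aids disposal of misfolded protein, from 44.3 to 102 CPM (1.21). At 2 days that list had 1 called in each direction, Bbc3 higher and Bcl2l11 lower, both named after their values were seen; the call of Bcl2l11 was lost under 11 of 19 alternatives, among them leaving out any 1 control library, any 1 2-day library or 7-day replicate 2. With library size alone the 7-day count was 6 higher and 3 lower.

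**Figure D4:**
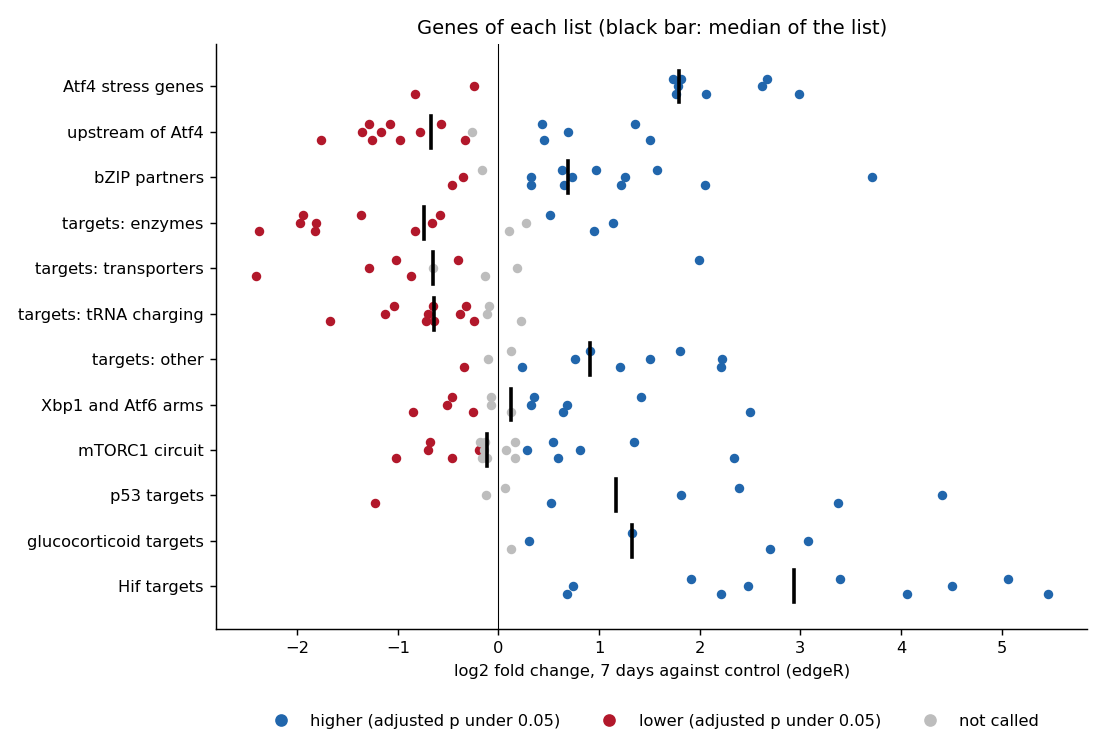
Log2 fold changes at 7 days against control for every tested gene of 12 lists, coloured by edgeR call, with the median of each list as a black bar. The Atf4 stress genes (median 1.79) and the other targets (0.91) lie mostly to the right, and the enzymes (−0.75), transporters (−0.65) and tRNA charging genes (−0.64) mostly to the left.

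Several of the 10 genes also answer to regulators other than Atf4, and the lists of those regulators moved at 7 days too; their part in the changes of Ddit4, Sesn2 and the rest was not tested. Ddit4 is a known target of hypoxia-inducible factor and of the glucocorticoid receptor. All 10 of 10 Hif targets listed rose at 7 days and 3 at 2 days (5 with the replicate block), with a median log2FC of 2.93 at 7 days; Ndrg1 went from 94.1 to 4130 CPM, Egln3 from 12.9 to 430 CPM and Ankrd37 from 2.07 to 34.3 CPM. This list also holds Ero1l. Of 5 glucocorticoid targets tested 4 rose at 7 days, Fkbp5 from 35.1 to 227 CPM and Tsc22d3 from 4.57 to 38.4 CPM among them, although Klf9 lost its call with library size alone and 5 other alternatives. Of 8 p53 targets tested 5 rose and 1 fell at 7 days (4 and 2 with library size alone), with Cdkn1a, the cell cycle inhibitor p21, from 20.5 to 211 CPM and Trp53inp1 from 0.821 to 17.4 CPM, whereas Mdm2 stood at 24.4, 25.8 and 25.5 CPM and was not called. Mdm2 was named after its values were seen.

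Genes of the other arms of the unfolded protein response moved both ways at 7 days. So did all genes tested, with 40.5% called higher and 41.8% lower. Of 13 genes of the Ire1-Xbp1 and Atf6 arms, 6 rose and 4 fell at 7 days (median log2FC 0.12; with library size alone 4 and 7). At 2 days 3 rose and 1 fell, with 1 rising without control replicate 1 or 2-day replicate 1 or 3. Xbp1 rose from 64.7 to 92.8 CPM at 2 days and 173 CPM at 7 days (1.42, edgeR adjusted p = 6.7e-11), Dnajb9 from 5.98 to 33.8 CPM at 7 days (2.50) and Edem1 from 83.1 to 133 CPM. The 4 that fell at 7 days were Creld2 (65.1 to 36 CPM), Manf (210 to 148), Sdf2l1 (74.1 to 54) and Pdia6 (283 to 239). In the circuit on which Ddit4 and Sesn2 act 6 of 19 genes were higher and 5 lower at 7 days, or 3 and 12 with library size alone. Beside the shares of all genes, neither count is read as a result about its pathway. Deptor, an inhibitor of mTOR, rose from 56.8 to 145 CPM (1.35, edgeR adjusted p = 2e-09), while Mios (19.7 to 9.75 CPM) and Depdc5 (30.9 to 18.9 CPM), subunits of the Gator complexes through which Sesn2 signals, fell.

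Among paralogs of the set, both other Sestrin genes rose at 7 days, Sesn1 from 6.89 to 24.1 CPM (log2FC 1.81, edgeR adjusted p = 9.9e-11) and Sesn3 from 22.7 to 75 CPM (1.72, edgeR adjusted p = 1.9e-10), close in size to Sesn2 (1.76). Trib1 rose from 19.6 to 52.6 CPM (1.42), and Trib2 stayed at or under 0.0224 CPM on average and was not tested. Chac2 rose at both times, from 10.3 to 16.4 and 21.9 CPM. Ddit4l stood at 0.853, 1.14 and 0.75 CPM and was not called against control, and Nupr1l was not tested, at 0.0748, 0.132 and 0.117 CPM. Of the lipoprotein receptors related to Vldlr, Lrp1 rose from 0.392 to 48.9 CPM (6.91, edgeR adjusted p = 6e-14), whereas Lrp8 fell from 39.9 to 9.59 CPM (−2.05, edgeR adjusted p = 1.6e-10). Cebpg rose from 24.5 to 37.9 CPM (0.63, not called with library size alone) and Jdp2 fell from 18.3 to 13.4 CPM (−0.46). Differences between paralogs were not tested.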

How the data were processed

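RNA was measured in 9 samples, 3 per group, grouped by their titles. Per the labels' protocols, mRNA was selected by poly(A) and prepared with NEBNext Ultra II RNA reagents; that kit version is known not to record strand. The authors deposited raw counts per Ensembl gene. STAR 2.7.0e, featureCounts and DESeq2 are listed with builds mm10 and GRCm38, per the submitters' processing notes; annotation release, strand setting and filters were not given in these sources. Symbols, coordinates and exon lengths came from GENCODE M21 (21236 of 21253 IDs found).

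Counts were filtered (filterByExpr), scaled (TMM, factors 0.785 to 1.125) and tested two-sided with edgeR 4.0.16 in R 4.3.3 (glmQLFit, glmQLFTest), 1 fit of all 9 samples by group. The SE is the absolute log2FC over the square root of F. Depth was 24143589 to 32277040 counts per sample. Every pair of replicates differed beyond sampling noise (chi-square per degree of freedom 4.24 to 38.3). The code was first tested on simulated data with 66 or 67 genes changed at each of 3 fold sizes. It recovered 88.1% to 91% of 1.5-fold changes, and 3.06% to 7.21% of its calls were false. Scaling when most genes change was not tested this way.

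The genes, lists and tests were chosen with earlier results of these data known. The 10 genes are described in full, with up to 3 called genes of smallest p per list and the paralogs; a few others were named after their values were seen. A paralog and part of the line's genotype are not reported here. Alternatives were other scalings, filters, tests (limma 3.58.1, DESeq2 1.42.0), left-out samples and a replicate block. Promoter sequence is RefSeq's (GRCm38.p6).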

Additional observations from a re-analysis of the deposited data

Results flagged for a closer look

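For 9 of the 10 genes the change against control differed between the 2 times, by the edgeR test of 7 days against 2 days, and the signed differences (log2FC at 7 days minus that at 2 days) follow. They were 1.43 for Atf3, 2.70 for Ddit3, 1.50 for Nupr1, 2.32 for Trib3 and 2.68 for Ddit4. They were 1.79 for Sesn2, −0.53 for Asns, 1.96 for Chac1 and 2.34 for Vldlr, the last being the one whose changes at the 2 times were called with opposite signs (−0.53 and 1.81). Across all genes 79.1% were called in that comparison. Groups of 3 samples are too small for a test of single outlying samples.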

How the results depend on the processing

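At 7 days against control the 8 rises and the fall of Asns kept their direction and call under all 19 alternatives, as did the 9 calls of 7 against 2 days. The fall of Atf4 gave log2FC of −0.64 to −0.18 and was lost under 6, so that 1 gene was called lower with DESeq2 size factors, a mean of at least 5 CPM and the DESeq2 Wald test, and 1 to 2 when single samples were left out. Between 7 and 2 days 2 were lower with library size alone and upper-quartile factors, and 1 to 2 with single samples left out. At 2 days, of 4 called, 1 was lower with DESeq2 size factors and limma-voom; leaving out single samples gave 2 to 4 called, 1 to 2 higher and 1 to 2 lower, since Atf3 or Asns was lost. Ddit4, near 0 at 2 days, turned to 0.01 with library size alone, 0.02 with upper-quartile factors, 0.00 with only the compared groups, and 0.08 and 0.03 without control replicate 2 or 2-day replicate 3; Sesn2 turned to 0.01 and 0.02 without these. With single samples left out Ddit4 ranged from −0.07 to 0.08 and Sesn2 from −0.06 to 0.02. None of these reversed values was called, and the cause was not tested. Without control replicate 2 the genes lower at 2 days fell from 1333 to 809. Same-numbered samples had correlated deviations of −0.13 to 0.48, not above 0.1 for every pair. The highest were those of control 3 with 7-day 3 (0.48) and control 1 with 7-day 1 (0.33). Samples of unlike number gave −0.44 to 0.17. Whether equal numbers mark a shared origin was not tested, and the main fit had no block. With the number as a block 5 genes were called at 2 days (Trib3 added, −0.27), 10 at 7 days and 9 between them. Of all genes 4039 were then called at 2 days in place of 2969. Ddit3 had the fewest counts of the 10 genes in controls (58, 88 and 67).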

Other observations

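Likeness of pattern was measured as the root mean square difference of centred log2 CPM over the 9 samples, as a description that says nothing of shared function. Among the 10 genes, Ddit3 and Ddit4 were each other's nearest (0.17), as were Sesn2 and Chac1 (0.17), and Trib3 and Vldlr (0.22). Atf3 lay nearest to Sesn2 (0.21), Nupr1 nearest to Atf3 (0.41), and Atf4 and Asns nearest to each other (0.32). Over all genes tested, the patterns most like that of Atf4 were those of Lamtor3, a scaffold gene of the lysosomal mTORC1 platform (0.04; 61.5, 59.8 and 51.4 CPM in controls, at 2 days and at 7 days), the ribosomal protein gene Rpl4 (0.05; 2930, 2960 and 2520 CPM) and the ubiquitin ligase subunit gene Skp1a (0.05; 294, 264 and 251 CPM). For Ddit3, the gene of the 10 with the largest change, they were H2-T3, a non-classical MHC gene (0.08; 9.21, 11.2 and 71.6 CPM), the retinol dehydrogenase gene Rdh16 (0.09; 0.505, 0.644 and 4.03 CPM) and the vesicular amine transporter gene Slc18a1 (0.10; 3.43, 4.13 and 26.3 CPM). H2-T3 belongs to a family of close copies, so its counts are uncertain.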
